A study of Mus musculus with 96 samples.

Results

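The microRNA hairpins mir-139, mir-186, mir-320, mir-340 and mir-484, which the study discusses for the striatum of Huntington's disease mice and which each come from a single genomic copy, were looked up by their miRBase identifiers. Of these 5 hairpins, 3 had rows among the 1187 hairpins of the tables, namely mir-139 (MI0000693), mir-186 (MI0000228) and mir-320 (MI0000704), while mir-340 and mir-484 were not analysed here. The study linked the 3 measured hairpins to gene co-expression modules in an earlier set of other mice. Their levels correlated negatively with these modules, which were enriched in their predicted targets. Each of the 96 libraries held small RNA from the striatum of 1 mouse of the C57BL/6 strain. Heterozygotes of 4 knock-in lines (Q20, Q50, Q92 and Q140) carry human *HTT* exon 1 with a CAG repeat of about that length (Q) in 1 of both endogenous *Htt* alleles, next to a normal mouse allele. They were sampled beside wild-type (WT) littermates of the Q20 line and of the Q50 line. Each genotype had 4 male and 4 female mice aged 6 months and as many aged 10 months, and the labels name no treatment. Controls, 24 per age, were the wild-type mice of both lines together with the Q20 mice. Per the labels, Q92 and Q140 mice were housed with mice of their own genotype and no wild-type littermates of these 2 lines were analysed here, so that repeat length cannot be told apart from other differences between lines or from housing. The methods of the study instead describe cages shared by heterozygous and wild-type mice of the same sex, a difference not resolved here. The tissue was measured in bulk, where fewer cells of a type and less RNA per cell cannot be told apart.

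Huntington's disease is caused by an expanded CAG repeat in the huntingtin gene, and the spiny projection neurons of the striatum are the cells it damages most. A microRNA is cut from a hairpin transcript into a short mature strand, whose seed near the 5′ end pairs with messenger RNAs and lowers their translation and stability. The 3 hairpins reach this form by different routes. mir-139 lies within an intron of *Pde2a*, which encodes a cyclic nucleotide phosphodiesterase abundant in striatal neurons, and mir-186 within an intron of *Zranb2*, which encodes a zinc finger splicing factor, so both can arise from the transcripts of their host genes. mir-320 belongs to the few mammalian microRNAs whose capped precursor begins at its own transcription start and does not need Drosha, the nuclease that frees most hairpins from longer transcripts. In human tumour cells miR-139-5p is known as a repressor of growth factor receptor signalling.

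On the mouse genome (GRCm38.p6, the assembly of mm10) mir-139 is at chr7:101475376-101475443 on the plus strand, within introns of *Pde2a* and of the overlapping gene model Gm45837. mir-186 is at chr3:157544279-157544349 on the plus strand, in an intron of *Zranb2*. mir-320 is at chr14:70443510-70443591 on the plus strand and overlaps no annotated host, and its nearest protein-coding gene, *Polr3d* (an RNA polymerase III subunit), starts 63 bases away on the opposite strand. The lengths of 68, 71 and 82 bases that the FPKM and count tables imply for these rows equal the RefSeq lengths of the 3 hairpins. The mature strands of mir-139 and mir-186 are shown 5′ to 3′ from RefSeq, with bases 2 to 8 (the seed) in capitals, because the seed sets which messages each can bind and because the counts do not tell the strands of a hairpin apart.

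miR-139-5p: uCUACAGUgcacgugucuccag
miR-139-3p: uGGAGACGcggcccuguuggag
miR-186-5p: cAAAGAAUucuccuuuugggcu
miR-186-3p: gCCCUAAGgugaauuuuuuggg

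The 4 seeds differ from each other, and none is shared by another of the 1679 mature names in the RefSeq table. That table held no sequence of mir-320, so it does not cover every mouse microRNA. The seed of miR-186-5p is A and U rich, with 1 G or C in 7 bases, while that of miR-139-3p has 5. The whole hairpins follow with both mature strands in capitals, since a read from either strand adds to the same count.

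mir-139 hairpin: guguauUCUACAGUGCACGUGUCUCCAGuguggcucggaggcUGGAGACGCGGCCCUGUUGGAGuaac
mir-186 hairpin: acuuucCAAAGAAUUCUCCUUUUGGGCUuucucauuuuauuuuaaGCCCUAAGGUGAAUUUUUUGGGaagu

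Libraries held 3948560 to 12530911 counts, with a median of 6638753, and all 3 hairpins were among the well measured ones. The count of mir-186 ranged from 8262 to 46907 (median 23513), that of mir-139 from 6500 to 38710 (median 14200) and that of mir-320 from 1222 to 5586 (median 2342). In FPKM, a scale that allows for hairpin length, their median levels of 52100, 33300 and 4400 placed mir-186, mir-139 and mir-320 at rank 45, 56 and 143 of the 1187. Counting error at the median count was 0.652% for mir-186, 0.839% for mir-139 and 2.07% for mir-320, well under the spread between mice, where the coefficient of variation among the 24 controls of 6 months was 15.5%, 12.1% and 26.6%. Intervals and errors cover mice and counting only. Levels are given as CPM, the count scaled to a fixed library total after adjustment of library sizes by the TMM method, and changes as log2 values with their standard errors (SE) from edgeR's quasi-likelihood test, with p adjusted by the Benjamini-Hochberg method over the 474 hairpins that passed the filter on low counts. Called means an adjusted p below 0.05.

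Some libraries stood apart from the rest. The study's own measure of this (Z) is a library's connectivity with others of its age, less the median and divided by the scaled median absolute deviation. It was below -5 in 8 libraries, 4 at each age and with each of the 6 genotypes among them. Of the 4 at 6 months, 3 had the lowest mir-186 levels and the highest mir-320 levels of the 48 libraries of that age. These were Q140 male replicate 1, with 1931 CPM of mir-186 and 741.9 CPM of mir-320, WT of Q50 line male replicate 3, with 1953 and 730.5 CPM, and WT of Q20 line male replicate 4, with 2121 and 664.6 CPM. At 10 months 2 of the 4, Q20 female replicate 1 and Q92 female replicate 1, had mir-139 levels of 1041 and 1252 CPM, against a median of 2400 CPM in the 44 other libraries of that age. Values without the 8 are given beside those results whose call they end or bring about, and beside some others that they move.

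**Figure D1:**
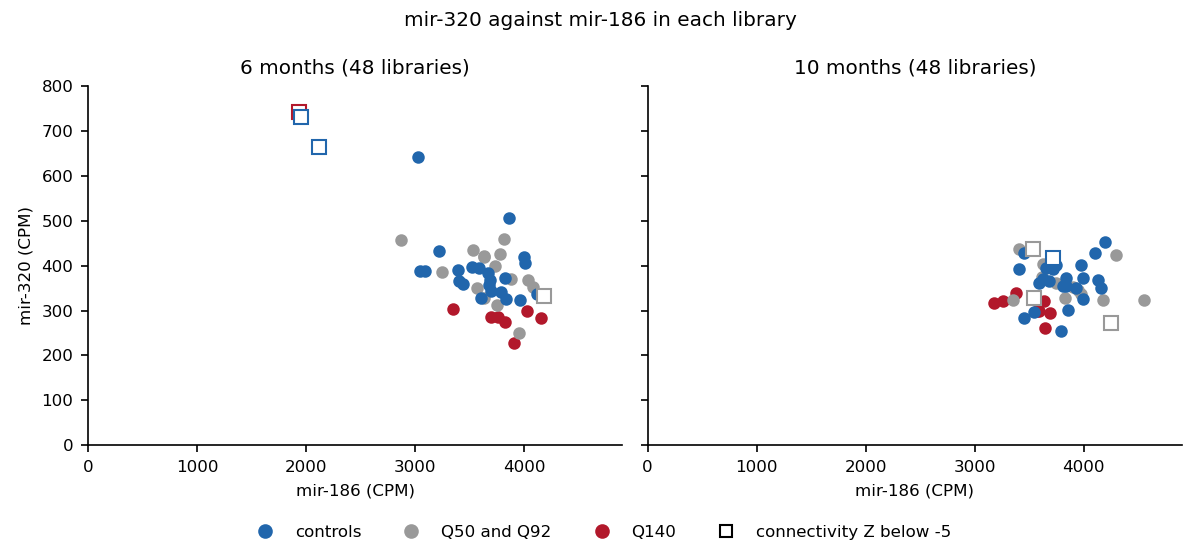
Level of mir-320 (vertical axis) against mir-186 (horizontal axis), both in CPM, in the 48 libraries of each age, with controls in blue, Q50 and Q92 in grey, Q140 in red and open squares for the 8 libraries with a connectivity Z below -5. At 6 months the Q140 library and both control libraries at the upper left had 1931 to 2121 CPM of mir-186 and 664.6 to 741.9 CPM of mir-320.

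**Figure D2:**
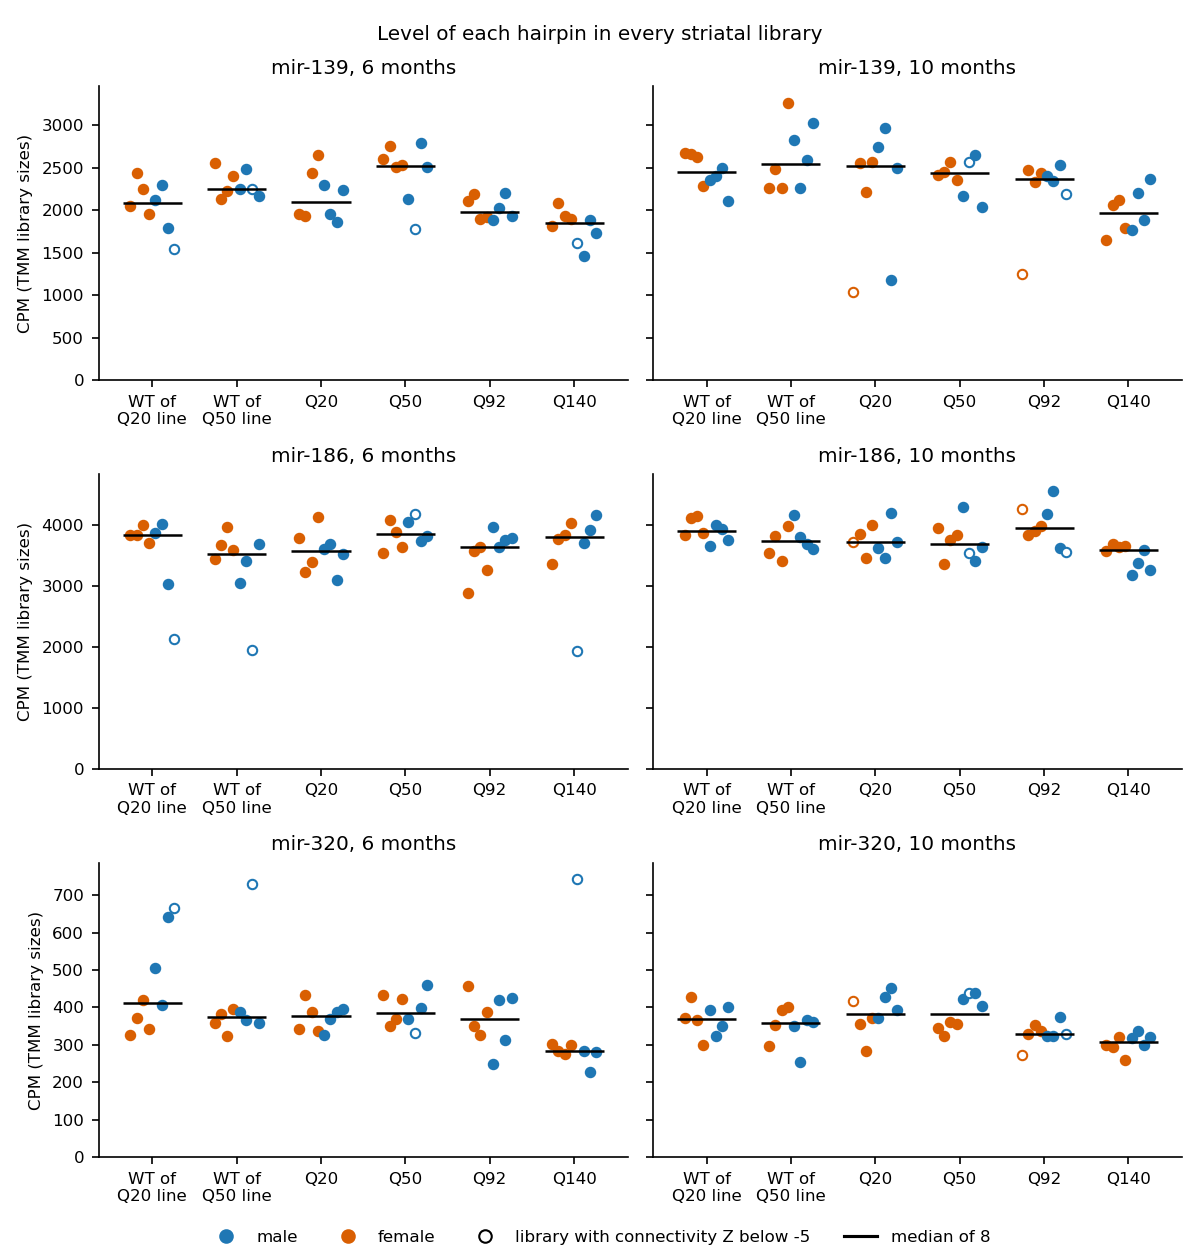
Level of mir-139, mir-186 and mir-320 in CPM (vertical axes, from 0) in each of the 96 libraries, by genotype, at 6 months (left) and 10 months (right). Points are mice (blue male, orange female, open for the 8 libraries with a connectivity Z below -5) and lines are medians of 8, and the medians of mir-139 and mir-320 were lowest in Q140 at both ages.

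mir-139 fell in Q140 striatum. At 6 months the 24 controls ranged from 1539 to 2654 CPM with a median of 2232, and the 8 Q140 mice from 1468 to 2083 CPM with a median of 1853. The Q140 mice were low as a group, all 8 lying under the control mean, yet they overlapped the controls, of which 8 lay under the highest Q140 mouse. The means were 1806 ± 194 CPM (SD, n = 8) in Q140 and 2178 ± 263 CPM (SD, n = 24) in controls, and the log2 change of -0.29 ± 0.07 (SE), by which the level fell by 18.1%, was called by edgeR (adjusted p = 0.00614). In this comparison 7.81% of all hairpins tested were called, and 4.85% of them had all 8 Q140 mice under the control mean.

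At 10 months mir-139 lay lower in Q140 mice by about as much, with a wider error, and did not pass the test. Controls ranged from 1041 to 3265 CPM with a median of 2497, and Q140 mice from 1652 to 2362 CPM with a median of 1973. All 8 Q140 mice again lay under the control mean, as for 14.3% of hairpins, and no Q140 mouse lay under the lowest control. The log2 change was -0.28 ± 0.11 (SE) and was not called (edgeR adjusted p = 0.0857), where 16.9% of hairpins were. Of the 8 Q20 mice of that age, 2 had 1041 and 1180 CPM and the other 6 had 2220 CPM or more, and without either of them the change was called (-0.31 in both cases, edgeR adjusted p = 0.0155 and 0.0195). Without all 8 low-connectivity libraries it was -0.31 ± 0.09 (adjusted p = 0.00622). Over 14 alternative settings the change ran from -0.34 to -0.15 and was called under 6.

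With both ages combined by Stouffer's method, mir-139 fell by 17.8% in Q140 mice, a log2 change of -0.28 ± 0.07 (SE, edgeR adjusted p = 2.37e-04). mir-320 was the other member called, and mir-186 was not, so that 2 of 3 members fell where 25.1% of all hairpins were called and 12.2% were called lower. Leaving out any 1 of the 96 libraries kept the call for mir-139, with changes between -0.30 and -0.27.

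mir-139 showed no called change at shorter repeats. At 6 months Q92 mice ranged from 1886 to 2207 CPM (median 1979) and Q50 mice from 1777 to 2794 CPM (median 2517), while at 10 months Q92 mice ranged from 1252 to 2531 CPM (median 2371) and Q50 mice from 2036 to 2645 CPM (median 2434). Over both ages the log2 change from controls was -0.11 ± 0.07 (SE) in Q92 mice, with a 95% interval from -0.24 to 0.02 and an edgeR adjusted p of 0.543. Without Q92 female replicate 1 of 10 months, the low-connectivity library with 1252 CPM, it was -0.07, with Q20 alone as controls -0.05, and without all 8 such libraries -0.09 ± 0.06. In Q50 mice it was 0.08 ± 0.07, with an interval from -0.05 to 0.21 (edgeR adjusted p = 0.674). The Q92 and Q50 medians therefore sat on opposite sides of the control medians at 6 months, at 10 months both lay under them, and every library set overlapped the controls. With edgeR 0 of 474 hairpins (0.0%) were called in either line over both ages, 43 and 44 having an unadjusted p below 0.05. DESeq2 called 2 for Q92 and 0 for Q50, and limma called 0 for both.

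As a numeric variable, CAG length was associated with mir-139 over both ages, with a slope of -0.21 ± 0.05 (SE) log2 units per 100 repeats (edgeR adjusted p = 4.21e-04), where 21.5% of hairpins were called. The slope was -0.21 ± 0.06 at 6 months (adjusted p = 0.0229, 8.02% called) and -0.21 ± 0.08 at 10 months (adjusted p = 0.0662, 15.8% called). At 6 months the call ended when Q140 female replicate 1, female replicate 3 or male replicate 2 was left out (-0.20, -0.19 and -0.19, adjusted p = 0.0549, 0.0515 and 0.0590). At 10 months it appeared when Q20 female replicate 1 or male replicate 3 was left out (-0.23 in both cases, adjusted p = 0.00968 and 0.0119), and when the 8 low-connectivity libraries were (-0.21 ± 0.06, adjusted p = 0.0118). Without the Q140 mice the slope over both ages was -0.11 and was not called (adjusted p = 0.788).

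mir-320 had the clearest separation of Q140 mice from controls, with 1 exception. At 6 months the 24 controls ranged from 323.1 to 730.5 CPM with a median of 385.1. Of the 8 Q140 mice, 7 had 228.7 to 303.6 CPM and lay under every control, and the remaining mouse, the low-connectivity library of male replicate 1, had 741.9 CPM and lay above every control. Of all hairpins 0.422%, 2 of 474, had at least 7 of 8 Q140 mice under every control at this age. With this mouse included the log2 change was -0.33 ± 0.13 (SE) and was not called (edgeR adjusted p = 0.126), and without it the change was -0.56 ± 0.12 (adjusted p = 6.13e-04). Over 14 alternative settings the change ran from -0.50 to -0.15 and was called under 5. Without all 8 low-connectivity libraries, left out after the data were seen, the 7 Q140 mice averaged 279.8 ± 24.6 CPM (SD) against 389.5 ± 70.2 CPM in 22 controls. The change was -0.48 ± 0.10 (SE, edgeR adjusted p = 3.17e-04). That these groups did not overlap follows from leaving out the Q140 mouse above every control, and held for 0.422% of hairpins.

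At 10 months mir-320 also fell in Q140 mice. Controls ranged from 255.3 to 452.6 CPM with a median of 369.5, and Q140 mice from 260.9 to 338.3 CPM with a median of 308.2. All 8 Q140 mice lay under the control mean, as for 14.3% of hairpins. The groups overlapped, with 5 of 24 controls under the highest Q140 mouse. The means were 306.2 ± 23.5 CPM (SD, n = 8) and 366.2 ± 48.1 CPM (SD, n = 24), and the log2 change of -0.24 ± 0.07 (SE), by which the level fell by 15.5%, was called by edgeR (adjusted p = 0.00784). In this comparison 16.9% of hairpins were called. The call for mir-320 held with each of the 48 libraries left out in turn.

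Over both ages the log2 change of mir-320 in Q140 mice was -0.29 ± 0.08 (SE, edgeR adjusted p = 5.87e-04), by which the level fell by 18.0%, and -0.35 ± 0.06 (adjusted p = 1.12e-06) without the 8 low-connectivity libraries. In Q92 mice the levels were 249.0 to 456.7 CPM at 6 months (median 368.9) and 272.6 to 375.2 CPM at 10 months (median 328.3), and in Q50 mice 333.1 to 459.0 CPM (median 384.8) and 324.0 to 438.1 CPM (median 381.8). The Q92 medians lay under and the Q50 medians beside those of controls, and the ranges overlapped at both ages. The log2 change over both ages was -0.16 ± 0.07 in Q92 mice (95% interval from -0.30 to -0.01, edgeR adjusted p = 0.409) and 0.01 ± 0.07 in Q50 mice (interval from -0.14 to 0.15, adjusted p = 0.970). The direct contrast of Q140 with Q92 gave -0.13 ± 0.09 for mir-320 (edgeR adjusted p = 0.393) and -0.17 ± 0.08 for mir-139 (adjusted p = 0.148), where 9.92% of hairpins were called. Without the 8 low-connectivity libraries the same contrast was called for mir-320 (-0.25 ± 0.07, adjusted p = 0.0122) and for mir-139 (-0.20 ± 0.07, adjusted p = 0.0323).

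**Figure D3:**
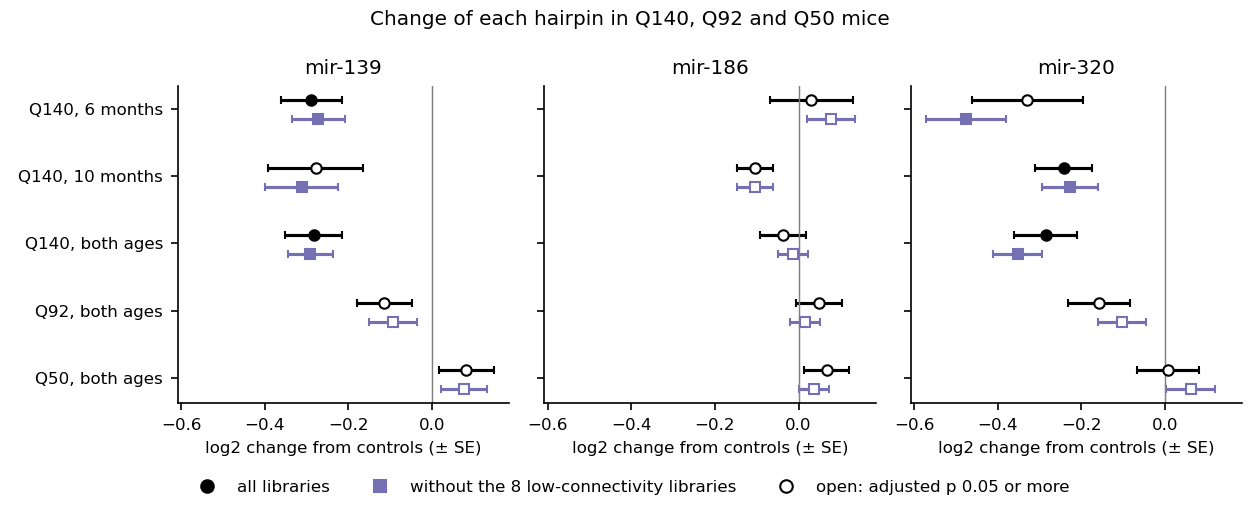
Log2 change from controls (horizontal axes, bars are SE) of each hairpin in Q140, Q92 and Q50 mice, with all libraries (black circles) and without the 8 low-connectivity libraries (purple squares). Filled symbols had an adjusted p below 0.05, which over both ages was the case for mir-139 and mir-320 in Q140 mice, at -0.28 and -0.29 with all libraries.

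The slope of mir-320 on CAG length over both ages was -0.22 ± 0.05 (SE) log2 units per 100 repeats (edgeR adjusted p = 3.36e-04), where 21.5% of hairpins were called. It was -0.26 ± 0.09 at 6 months (adjusted p = 0.0774, 8.02% called) and -0.18 ± 0.05 at 10 months (adjusted p = 0.00876, 15.8% called). With edgeR, Q140 male replicate 1 decided the call at 6 months, since without it the slope was -0.39 ± 0.08 (adjusted p = 8.91e-04), and without all 8 low-connectivity libraries it was -0.32 ± 0.07 (adjusted p = 0.00205). With that library kept, limma on log2(FPKM + 1) called the slope at 6 months (-0.31, adjusted p = 0.0203). Without the Q140 mice the slope over both ages was -0.18 and was not called (adjusted p = 0.568).

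The level of mir-320 at 10 months also moved with a number in the sample descriptions, the letter L with a digit, whose meaning the labels do not state. Libraries with L numbers 3, 4 and 5 differed in mir-320 at 10 months (edgeR with sex and CAG length as a number, adjusted p = 2.74e-07). So did 22.8% of hairpins, while for mir-139 and mir-186 the edgeR adjusted p was 0.249 and 0.185. At 6 months, with L numbers 3 to 6, none of the 3 members was called (adjusted p = 0.138 for mir-320, 0.610 for mir-139 and 0.0613 for mir-186) where 17.7% of hairpins were. Controls averaged 301.9 ± 33.0 CPM (SD, n = 6) with L number 3, 380.2 ± 30.6 CPM (n = 13) with 4 and 406.8 ± 15.8 CPM (n = 5) with 5. No Q140 mouse of that age had L number 3, 7 had L number 4 and 1 had L number 5. Among L number 4 the 7 Q140 mice, at 260.9 to 338.3 CPM, lay under all 13 controls, at 350.0 to 452.6 CPM, which was the case for 5 of 474 hairpins (1.05%). The log2 change within L number 4 was -0.31 ± 0.05 (SE), against -0.24 over all libraries. Within L number 5 the lone Q140 mouse had 317.2 CPM and the 5 controls 392.7 to 429.0 CPM, a change of -0.37 ± 0.16. Within L number 3, which held controls and 3 Q92 mice only, the slope was 0.006 ± 0.138. At 6 months the Q140 change of mir-320 was -0.07 ± 0.23 (SE) within L number 5. That set held 16 controls and 3 Q140 mice, among them male replicate 1 with 741.9 CPM. The change was -0.48 ± 0.13 within L number 6 (3 Q140 mice and 3 controls) and -0.48 within L number 4, which held 1 Q140 mouse.

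**Figure D4:**
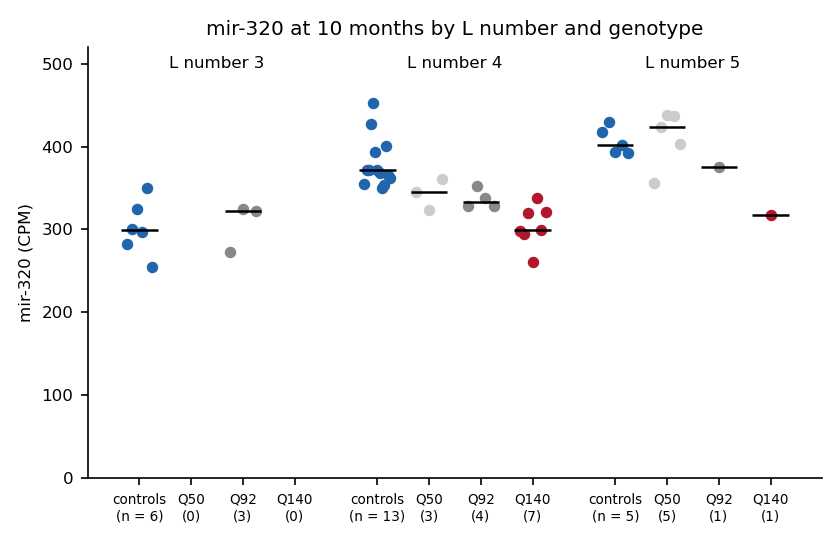
Level of mir-320 at 10 months in CPM (vertical axis, from 0) by L number and genotype, with a point per mouse and a line at each median. Among L number 4 no Q140 mouse reached the lowest control (350.0 CPM), and controls of L number 3 averaged 301.9 CPM against 406.8 CPM for L number 5.

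For mir-139, whose levels did not differ between L numbers beyond the test's threshold, the slope on CAG length was negative within each of the 6 combinations of age and L number that could be fitted. The slope within L number 3 at 10 months (-0.40 ± 0.18, SE) came from 6 controls and 3 Q92 mice, with no Q140 mouse. Female replicate 1 of these Q92 mice, a low-connectivity library, had 1252 CPM. The other Q92 mice had 2399 and 2342 CPM, against a mean of 2379 CPM in controls of that L number. The Q140 change of mir-139 within L number 4 at 10 months was -0.36 ± 0.12 (SE), and within L number 6 at 6 months -0.38 ± 0.12. Within L number 5 it was -0.24 ± 0.12 at 6 months, where 3 Q140 mice and 16 controls gave a slope of -0.13 ± 0.09, and -0.26 ± 0.40 at 10 months with 1 Q140 mouse. Within L number 4 at 6 months, also with 1 Q140 mouse, it was -0.54 ± 0.19.

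mir-186, the most abundant of the 3, showed no called association with repeat length. At 6 months controls ranged from 1953 to 4121 CPM with a median of 3638, Q50 mice from 3529 to 4180 CPM (median 3847), Q92 mice from 2872 to 3954 CPM (median 3634) and Q140 mice from 1931 to 4154 CPM (median 3793). The 4 ranges overlapped, and the lowest Q140 and control mice were the low-connectivity libraries named above. The slope over both ages was -0.01 ± 0.04 (SE) log2 units per 100 repeats, with a 95% interval from -0.09 to 0.07 and an edgeR adjusted p of 0.701.

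At 10 months the levels of mir-186 were lower in Q140 mice without reaching the threshold against controls. Controls ranged from 3408 to 4194 CPM (median 3801), Q50 mice from 3353 to 4291 CPM (median 3688), Q92 mice from 3543 to 4548 CPM (median 3937) and Q140 mice from 3178 to 3688 CPM (median 3578). All 8 Q140 mice lay under the control mean, as for 14.3% of hairpins, and 3 of them under every control, where 3.38% of hairpins had at least 3. The log2 change from controls was -0.10 ± 0.04 (SE, edgeR adjusted p = 0.0857). Against the Q92 mice, the group with the highest mean, Q140 mice fell by 0.17 ± 0.05 (adjusted p = 0.0390), a contrast in which 5.06% of hairpins were called and which was singled out after its value was seen. That call ended without any of 9 of the 48 libraries, 5 Q140 and 4 Q92 mice, with changes from -0.20 to -0.15 over all 48 and adjusted p up to 0.107. Of 14 alternative settings 5 ended it too, namely the L number as a factor (-0.15, adjusted p = 0.0976), Q20 alone as controls (-0.17, 0.0882), no filter on low counts (-0.18, 0.127), the study's outlier handling with edgeR (-0.16, 0.101) and leaving out the 8 low-connectivity libraries (-0.17, 0.0690). At 6 months the same contrast was 0.0007 ± 0.123 (adjusted p = 0.997, 2.32% of hairpins called), and over both ages the log2 difference of Q140 from Q92 was -0.09 ± 0.07 (adjusted p = 0.150) and that of Q140 from controls -0.04 ± 0.05 (adjusted p = 0.289). The difference from Q92 over both ages was -0.04 without Q140 male replicate 1 of 6 months and -0.03 ± 0.04 without the 8 low-connectivity libraries (adjusted p = 0.642), and that from controls was then -0.01 ± 0.04 (adjusted p = 0.667).

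The groups joined as controls did not differ in the 3 hairpins beyond the threshold. Over both ages the log2 difference of Q20 mice from their wild-type littermates was -0.03 ± 0.08 (SE) for mir-139, -0.02 ± 0.07 for mir-186 and -0.10 ± 0.09 for mir-320, with edgeR adjusted p of 0.857 to 0.996 and 1.48% of hairpins called. Wild-type mice of the Q50 line differed from those of the Q20 line by 0.14 ± 0.08, -0.07 ± 0.07 and -0.11 ± 0.09 in the same order (adjusted p of 0.642 to 0.808). There edgeR called 0 of 474 hairpins (0.0%), with 36 at an unadjusted p below 0.05, and DESeq2 and limma called 0 as well. At single ages Q20 mice differed from their littermates by -0.27 ± 0.16 (6 months) and 0.07 ± 0.08 (10 months) for mir-320. For mir-139 these differences were 0.08 ± 0.08 and -0.14 ± 0.14. The wild-type groups differed in mir-139 by 0.18 ± 0.08 at 6 months and by 0.10 ± 0.14 at 10 months. None of these was called (edgeR adjusted p of 0.507 to 0.999).

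Across the 12 groups of genotype and age, mean mir-139 ran from 1806 CPM in Q140 mice of 6 months to 2625 CPM in wild-type mice of the Q50 line at 10 months, and mean mir-186 from 3343 CPM in the latter line at 6 months to 3979 CPM in Q92 mice at 10 months. Mean mir-320 ran from 306.2 CPM in Q140 mice of 10 months to 460.0 CPM in wild-type mice of the Q20 line at 6 months. Neighbours in these orders differed by less than the smaller of their SDs, with the exception of Q140 and Q92 for mir-320 at 10 months (306.2 ± 23.5 against 330.2 ± 29.3 CPM, SD, n = 8 each). The 2 lowest mir-139 groups were the Q140 mice of both ages.

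The comparison of ages in controls changed with scaling and with the L number as a factor. L number 5 was held by 16 of 24 controls at 6 months and by 5 of 24 at 10 months. The fit with that factor took equal L numbers of both ages as the same level. The labels do not state that they are, so a dependence of the age change on the L number is not shown. In controls mir-320 had a median of 385.1 CPM at 6 months and 369.5 CPM at 10 months, with overlapping ranges, and the log2 change of -0.20 ± 0.08 (SE) was called by edgeR (adjusted p = 0.0330), where 43.7% of hairpins were called. With the L number as a factor it was -0.10 ± 0.09 and was not called (edgeR adjusted p = 0.458). Without the 8 low-connectivity libraries it was -0.13 ± 0.06 (adjusted p = 0.0880), and without any of 7 single libraries, among them WT of Q50 line male replicate 3 (-0.15, adjusted p = 0.0669), the call ended as well. The log2 change from 6 to 10 months was 0.13 ± 0.08 for mir-139 and 0.10 ± 0.05 for mir-186, neither of them called (adjusted p = 0.183 and 0.114). Without the 8 low-connectivity libraries the change of mir-186 was 0.05 ± 0.04 (adjusted p = 0.280), and mir-139 was called without Q20 female replicate 1 of 10 months (0.17 ± 0.06, adjusted p = 0.0348). With library totals in place of TMM, which shifted the median of all hairpins from -0.01 to 0.09, the changes were 0.23 for mir-139 and 0.20 for mir-186, both called, and -0.09 for mir-320, not called.

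No difference of the slope on CAG length between ages or between sexes was called. The slope at 10 months minus that at 6 months was -0.02 ± 0.10 (SE) for mir-139, -0.09 ± 0.08 for mir-186 and 0.04 ± 0.11 for mir-320 (edgeR interaction terms, adjusted p of 0.813 to 0.975, 1.9% of hairpins called). The slope in females minus that in males was -0.03 ± 0.10, -0.04 ± 0.08 and 0.01 ± 0.11 in the same order (adjusted p = 0.994 for each). There edgeR called 0 of 474 hairpins (0.0%), with 6 at an unadjusted p below 0.05, and DESeq2 and limma called 0. Both sexes of Q140 mice had lower mean mir-139 than controls of their sex at 6 months, with 1679 against 2107 CPM in males and 1933 against 2250 CPM in females. In control mice females differed from males by 0.04 ± 0.08, 0.10 ± 0.05 and -0.18 ± 0.08 in log2 level of mir-139, mir-186 and mir-320, none of which was called (adjusted p of 0.365 to 0.827, 0.211% of hairpins called).

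Hairpins with a similar profile were sought by Pearson's r of log2 CPM over the 12 means of genotype and age. The profile closest to mir-139 was that of MI0000155 (r = 0.904 over 12 means, 0.596 over 96 libraries), and MI0000229 was next (0.894 and 0.874). For mir-186 it was MI0001447 (0.852 and 0.862), and the third-ranked hairpin reached 0.790 over the means. Over the 88 libraries without those of low connectivity r with MI0001447 was 0.631, and for the next hairpins in rank, MI0000646 and MI0000141, it was 0.403 and 0.484, against 0.752 and 0.734 over all 96. For mir-320 it was MI0009939, with 0.939 over the means but -0.047 over single libraries, at a mean of 3.97 CPM, and the next, MI0004227, had 0.888 and 0.603. The tables give these identifiers without microRNA names, the libraries share depth and scaling, and the values are descriptions only.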

How the data were processed

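Small RNA of the striatum was sequenced by the authors (36-base single-end reads). Per the methods of the study, clipped reads were aligned to mm10 with STAR and counted with HTSeq, and the submitters' processing notes name CASAVA 1.8.2. The authors deposited estimated counts per hairpin and FPKM values. Of the deposited estimated counts above 0, 20.0% were not whole (tolerance 0.001), a point the sources used here do not explain, while all 288 values of the 3 hairpins were whole. Counts were rounded. The tables give miRBase identifiers without names, so lists of module-linked and of cell-type microRNAs, and with them a check of the tissue, could not be matched.

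filterByExpr (minimum count 10) kept 474 hairpins with 99.99% of counts. edgeR 4.0.16 (R 4.3.3, TMM, robust quasi-likelihood F tests, sex as covariate) tested CAG length as a number (7 for wild type) and genotypes against controls at each age, and signed Z values of both ages were combined by Stouffer's method, with the mean of both log2 values and normal 95% intervals. The study's batch covariate was not used, since the labels name no batch. Alternatives were DESeq2 1.42.0, limma 3.58.1 on log2(FPKM + 1) and on log2(FPKM + 10), RLE size factors, library totals, no filter, a mean of 10 CPM, other controls, the study's outlier handling, L number, replicate block and leaving out libraries. Leaving out the 8 libraries with connectivity Z below -5 together, and giving Q140 against Q92 at each age, were added after the data were seen. Tests were tried on simulated data. Libraries were separate mice, and no pair was a duplicate (chi-square per degree of freedom of 16 or more). Named hairpins were the members and the 3 others most alike to each. Members, lists and tests were chosen with earlier results of these data known.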

Additional observations from a re-analysis of the deposited data

Results flagged for a closer look

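In 36 sets of 8 mice (3 hairpins in 12 groups of genotype and age) 5 had a highest or lowest mouse whose gap to the next, divided by the whole range, exceeded 0.526, where chance gives about 1 in 20. All 5 came from 3 of the 8 libraries with a connectivity Z below -5. In Q140 mice of 6 months, male replicate 1 had the lowest mir-186 level, 1931 CPM against 3347 CPM in the next mouse, and the highest mir-320 level, 741.9 CPM against 303.6 CPM. In wild-type mice of the Q50 line at 6 months, male replicate 3 likewise had the lowest mir-186 level, 1953 CPM against 3048 CPM, and the highest mir-320 level, 730.5 CPM against 395.7 CPM. In Q92 mice of 10 months, female replicate 1 had the lowest mir-139 level, 1252 CPM against 2194 CPM in the next mouse. Both flagged libraries of 6 months were of male mice with L number 5, which 27 libraries of that age had. They held 5114969 and 5021286 counts, against a median of 6638753 over all libraries. WT of Q20 line female replicate 4 of 6 months, with L number 5 and 4910258 counts, had 342.4 CPM of mir-320. What set the flagged libraries apart was not tested. The same low mir-139 levels in 2 of 8 Q20 mice of 10 months, 1041 and 1180 CPM, lay too close to each other to be picked out by this ratio.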

How the results depend on the processing

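Over both ages the fall of mir-139 and mir-320 in Q140 mice kept its direction and its call under all 14 alternatives (log2 change from -0.33 to -0.20 and from -0.35 to -0.23). Their slopes on CAG length over both ages were called under 12 of 13, the exception being the fit without the Q140 mice, which gave -0.11 and -0.18, with -0.072 for mir-139 at 6 months, -0.12 for mir-320 at 10 months, and 0.071 for mir-186 over both ages and 0.065 at 10 months, none called. The outlier handling of the study called mir-139 at 10 months (slope -0.23 with DESeq2 and -0.21 with edgeR, Q140 -0.34 and -0.31), mir-320 at 6 months (slope -0.31 and -0.32, Q140 -0.48 and -0.50), Q140 against Q92 for mir-139 (-0.19 and -0.20) and mir-320 (-0.25 and -0.27), and, with DESeq2, mir-186 in Q140 at 10 months (-0.10, and -0.11 with DESeq2 alone). Leaving out the 8 low-connectivity libraries called mir-139 at 10 months (slope -0.21, Q140 -0.31), mir-320 at 6 months (-0.32 and -0.48) and Q140 against Q92 (-0.20 and -0.25), and ended the age call of mir-320 (-0.13). The L number as a factor called mir-139 at 10 months (slope -0.25, Q140 -0.34), ended the age call of mir-320 (-0.10) and turned uncalled values of mir-186 (slope at 6 months -0.022, Q140 -0.039, Q140 against Q92 at 6 months -0.040, Q20 against wild type 0.0015) and mir-320 (Q50 -0.026, slope difference between ages -0.017). Within L number 3 the slope of mir-320 at 10 months was 0.0060. Library totals called mir-139 at 10 months (slope -0.23, Q140 -0.31), mir-186 in Q140 at 10 months (-0.14) and the age changes of mir-139 (0.23) and mir-186 (0.20), ended that of mir-320 (-0.095), and turned mir-186 at 6 months (Q140 -0.0080, against Q92 -0.048). limma with pseudocounts of 1 and 10 called mir-320 at 6 months (slope -0.31, Q140 -0.42), mir-186 in Q140 at 10 months (-0.14) and the age changes of mir-139 (0.20) and mir-186 (0.22), ended that of mir-320 (-0.084 and -0.083), and turned mir-186 at 6 months (slope -0.0033 and -0.0032, Q140 -0.029, against Q92 -0.081) and the slope difference between ages of mir-139 (0.0081). No filter ended mir-139 at 6 months (slope -0.19) and the age call of mir-320 (-0.17), Q20 alone as controls ended mir-139 in Q140 at 6 months (-0.26), and wild type alone called mir-139 in Q140 at 10 months (-0.34). For Q50, mir-320 was -0.0053 with a mean of 10 CPM and -0.0034 with wild type alone, and mir-139 -0.020 with wild type of the Q50 line. Libraries left out in turn gave slopes of -0.23 to -0.19 for mir-139 at 6 and at 10 months, -0.39 to -0.22 for mir-320 at 6 months and, for mir-186, -0.0010 to 0.078 at 6 months and -0.023 to 0.017 over both ages. Q140 changes were -0.31 to -0.25 for mir-139 at 10 months, -0.56 to -0.25 for mir-320 at 6 months and, for mir-186, -0.016 to 0.12 at 6 months, -0.060 to 0.0075 over both ages and -0.047 to 0.10 against Q92 at 6 months. Q50 changes of mir-320 were -0.0091 to 0.027, and age changes 0.11 to 0.17 for mir-139 and -0.22 to -0.15 for mir-320. Replicate numbers did not pair mice (mean correlation of residuals -0.03 at 6 and 0.003 at 10 months), and with the replicate block Q140 against Q92 for mir-186 at 6 months was -0.0046. The block changed no call. Over all hairpins, the 38 called for the slope at 6 months became 17 with no filter, 67 and 61 with the outlier handling (DESeq2 and edgeR) and 63 without the 8 libraries. The 37 called for Q140 at 6 months became 92, 96 and 74 under the last 3, and 21 with Q20 alone as controls. Without the Q140 mice edgeR called 0 hairpins for the slope at 6 months, at 10 months (75 with them) and over both ages (102 with them), with 20, 41 and 36 at an unadjusted p below 0.05, and no other tool was run there. The call of mir-186 in Q140 against Q92 at 10 months ended under 5 of 14 alternatives: L number (-0.15), Q20 alone (-0.17), no filter (-0.18), outlier handling with edgeR (-0.16) and without the 8 libraries (-0.17).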

Other observations

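mir-186 and mir-320 ran in opposite directions among the libraries of 6 months and not among those of 10 months. Over the 48 libraries of 6 months Pearson's r of their log2 CPM was -0.754 (Spearman's rho -0.511), and over the 44 without a connectivity Z below -5 it was -0.455 (rho -0.395). Over the 48 libraries of 10 months r was 0.083 (rho 0.099). mir-139 had r of 0.289 with mir-186 and of 0.002 with mir-320 at 6 months, and of -0.035 and 0.181 at 10 months. The libraries share scaling to CPM and differ in genotype and sex, so these values are descriptions. A further library of the pattern, WT of Q20 line male replicate 3 of 6 months, was not among the 8 of low connectivity and had 3025 CPM of mir-186 and 642.8 CPM of mir-320, whereas mir-320 in the 7 other Q140 mice of 6 months was low, at 228.7 to 303.6 CPM, with mir-186 at 3347 to 4154 CPM.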
